A study of Mus musculus with 24 samples.

Results

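Sex differences in the kidney were examined in BPH/2J mice, the hypertensive line of the Schlager mouse strains, using the 12 of 24 arrays in the series that carry this strain label. Of these, 6 were labelled female and 6 male, and each array was made from the kidney RNA of a mouse killed at 12 weeks of age. The remaining 12 arrays, 6 female and 6 male, came from the normotensive BPN/3J strain at the same age and were used only where a sex difference was compared between strains. No mouse was treated, and both strains are inbred lines from a common stock selected for blood pressure, so each strain stands for 1 genotype. The study was designed to find genes shared by hypertensive males and females, and the comparison described here asks which autosomal genes differed between the sexes within the hypertensive strain. It covers 18041 autosomal genes that have a probe set listing their symbol alone, and they are described as transporters, metabolic enzymes and hormone-regulated genes.

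The mouse kidney is known for strong sexual dimorphism, much of it in the proximal tubule, the segment that reabsorbs most of the filtered glucose, amino acids and phosphate and secretes organic anions and drugs. Proximal tubule cells carry the androgen receptor, and testosterone raises the transcripts of many transporters, cytochrome P450 enzymes and conjugating enzymes there. Oestrogen, prolactin and the sex-specific pattern of growth hormone release act on further genes in kidney and liver, and growth hormone signals through JAK2 and the STAT5 transcription factors.

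Deposited values were on a log2 scale, on which a difference of 1 is a 2-fold difference. Array medians lay between 6.932 and 6.951 in females and between 6.891 and 6.915 in males. Correlations between arrays of the same sex were 0.993 to 0.997, and those between a female and a male array were 0.986 to 0.990. All 12 arrays fitted their sex label, as *Xist* was 12.26 to 12.51 in females and 4.61 to 5.53 in males, and the Y-linked *Kdm5d*, *Eif2s3y* and *Uty* were higher in every male than in every female. The proximal tubule marker list had a mean of 12.83 to 12.89 in females and 12.82 to 12.92 in males. Markers of neighbouring tissues were high on some arrays. The mean of 9 adrenal cortex markers was 9.52 to 9.73 in 4 female arrays, 6.36 and 5.77 in the other 2, and 5.87 to 8.51 in males, and the mean of 19 hepatocyte markers reached 9.76 in female array 3 and 9.62 in male array 1 against medians of 7.11 and 7.40. The number of arrays limits the precision throughout, and because kidney tissue was assayed, fewer cells of a type and less RNA per cell cannot be told apart.

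Expression differed between the sexes in a large part of the genome, but mostly by little. At an adjusted p under 0.05 (limma, Benjamini-Hochberg over all probe sets), 3108 genes (17.2%) were significantly higher in female kidneys and 2840 (15.7%) in male kidneys, which is 33.0% of the autosomal genes. The differences were under 1.5-fold for 5314 of the 5948 called genes (89.3%), and the median log2 difference over all autosomal genes was -0.00067. Among called genes, 81 were at least 2-fold higher in females and 132 in males. On the measured values, 7 genes were at least 8-fold higher in females against 12 in males, and 2 were at least 16-fold higher in females against 8 in males. The arrays of the sexes did not overlap for 3923 genes (21.7%), of which 1930 were higher in all females and 1993 higher in all males. Females accounted for 52.3% of the calls on the deposited values, for 39.5% after shifting all arrays to a common median (2425 higher in females and 3709 in males) and for 50.3% after quantile normalisation. Within the arrays whose adrenal cortex list mean was under 7 (2 female and 4 male), 1367 genes were higher in females and 1242 in males, and 2446 of the 5948 calls were also called there in the same direction. That set holds male array 1 but not female array 3, each the richest of its sex in hepatocyte markers. The sexes are thus unbalanced for these markers there. The median log2 difference of the hepatocyte list was -0.645 in that set against -0.10 in all arrays.

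The largest difference belonged to *Slco1a1*, an organic anion transporting polypeptide that takes up steroid conjugates. Its expression was 4.52 to 5.41 (median 4.58) in females and 12.17 to 12.41 (median 12.27) in males, at least 107-fold higher in males (measured log2 difference -7.55, SE 0.13, adjusted p = 2.69e-13). All 6 female values lay at or under the level of transcripts absent from one sex (*Xist* in males and Y-linked genes in females, up to 5.53 on these arrays). The deposited values carry no detection calls, so for genes with most arrays of one sex at or under that level the fold change is given against it, as a lower bound. The highest female value came from array 3, and no female array came near the males. *Cyp2j13*, a cytochrome P450 of the epoxygenase family, was 6.19 to 6.78 (median 6.63) in females and 12.80 to 12.89 (median 12.85) in males, a 76.4-fold difference (adjusted p = 1.07e-14). *Slc7a13*, the aspartate and glutamate transporter of the late proximal tubule, was 7.20 to 7.75 (median 7.33) in females and 13.39 to 13.47 (median 13.45) in males (66.3-fold, log2 difference -6.05, SE 0.082, adjusted p = 1.49e-14). For both genes the male arrays lay within a narrow band close to the top of the scale. *Cyp7b1*, an oxysterol and steroid hydroxylase, was 6.88 to 7.20 (median 7.09) in females and 12.17 to 12.30 (median 12.21) in males (35.6-fold, log2 difference -5.16, SE 0.053, adjusted p = 1.06e-15). The other male-biased genes among the 12 largest were the glucuronosyltransferases *Ugt2b37* (19.6-fold) and *Ugt2b38* (11-fold), the organic anion transporter *Slc22a30* (17.4-fold), the arachidonic acid hydroxylases *Cyp4a12a* (16.2-fold) and *Cyp4a12b* (12.3-fold), the carboxylesterase *Ces1g* (11.9-fold), the steroid hydroxylase *Cyp2d9* (10.8-fold) and *Pzp*. *Pzp*, which encodes a protease inhibitor of plasma, had the widest female spread of these 12 genes, 5.53 to 9.95 (median 6.08), against 11.45 to 11.82 (median 11.62) in males. Its highest female value was again array 3, the female array richest in hepatocyte markers, and without that array its log2 difference went from -4.80 to -5.43.

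In the opposite direction, *Cyp4a14*, a fatty acid hydroxylase, was 12.24 to 12.61 (median 12.42) in females and 7.41 to 8.91 (median 8.04) in males, 20.6-fold higher in females (log2 difference 4.36, SE 0.20, adjusted p = 3.79e-09). The male arrays spread more widely than the female arrays for this gene. *Igf2*, an imprinted growth factor gene, was 10.75 to 11.40 (median 10.87) in females and 6.58 to 6.94 (median 6.71) in males (19.2-fold, log2 difference 4.26, SE 0.12, adjusted p = 3.58e-11). *Abcc3*, which exports glucuronide and other organic anion conjugates, was 10.43 to 10.85 (median 10.67) in females and 6.86 to 7.23 (median 7.09) in males (12-fold, log2 difference 3.58, SE 0.073, adjusted p = 1.62e-12). *Slc7a12*, a transporter of small neutral amino acids, was 13.10 to 13.35 (median 13.26) in females and 9.02 to 10.20 (median 9.71) in males (12-fold, log2 difference 3.58, SE 0.17, adjusted p = 5.68e-09). The male arrays of *Slc7a12* covered more than 1 log2 unit while the female arrays stayed within 0.3 of each other. *Ly6f*, of a family of lipid-anchored surface proteins, was 11.2-fold higher in females. *Scrg1* was at least 6.61-fold and *Slc17a2*, of the sodium-phosphate cotransporter family, at least 7.24-fold higher. In order, 6 and 4 male arrays of *Scrg1* and *Slc17a2* lay at or under 5.53. *Serpina6*, which encodes the corticosteroid-binding globulin, was 7.93-fold higher, and of these 12 genes it had the widest male range, 5.05 to 7.41 (median 5.80). *Pjvk*, the hearing gene that encodes pejvakin, *Kynu*, the kynureninase of tryptophan breakdown, *Gbp3*, an interferon-induced GTPase, and *Cbr1*, a carbonyl reductase, completed the list at, in order, at least 6.95-fold (4 male arrays at or under 5.53) and 6.47-, 5.78- and 5.3-fold.

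**Figure D1:**
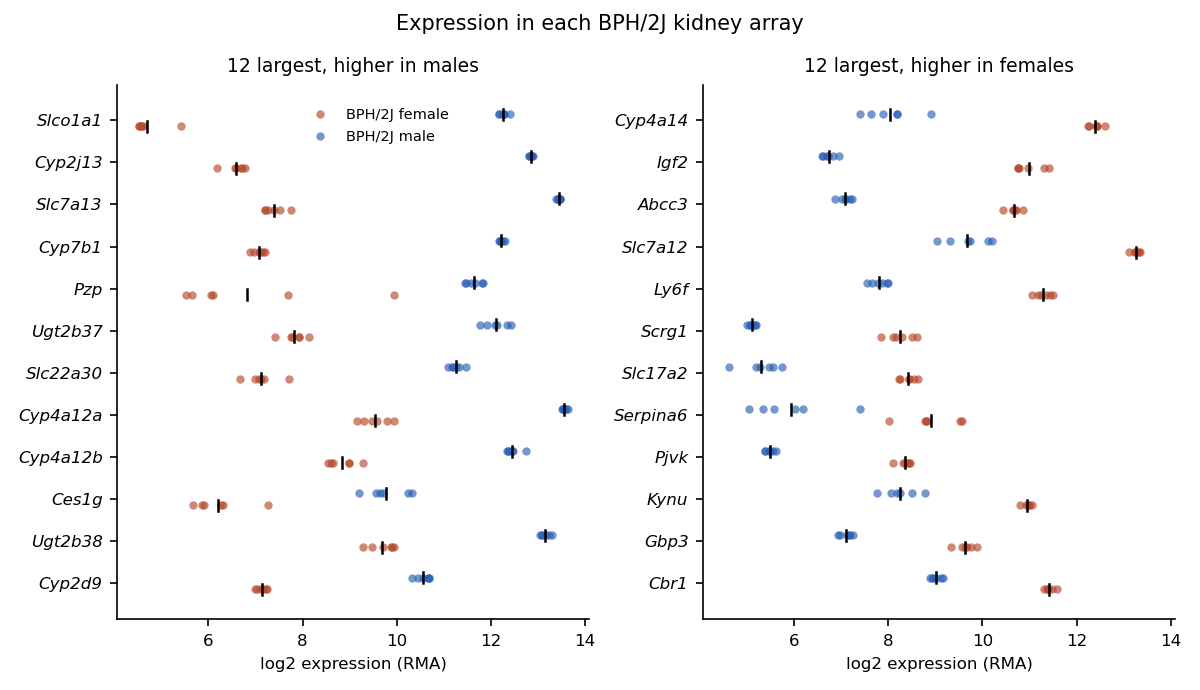
Log2 expression in each BPH/2J kidney array for the 12 autosomal genes with the largest difference in each direction, with females in red, males in blue, each point 1 array and black bars marking the mean of 6 arrays. The 24 genes were chosen among called genes whose sexes do not overlap, and the wide female spread of *Pzp*, up to 9.95, comes from array 3.

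RefSeq promoter windows, 250 bases before to 50 after a transcription start (GRCm38.p6), were found for 103 of 140 named genes and 14 of the 24 above. The bases before the start are printed for *Slco1a1* and *Cyp2d9*, male-biased genes with a match to TATAAA, the letters of a TATA box. They are also printed for *Slc17a2* and *Slc17a3*, neighbours on chromosome 13 with no annotated gene between them. *Slc17a2* was at least 7.24-fold higher in females and *Slc17a3* 1.69-fold higher in males. Capitals mark TATAAA in the first pair and TTCNNNGAA, the letters of a STAT5 element, in the second, either strand counted.
Slco1a1 (chr6:141946963-141947212, minus strand): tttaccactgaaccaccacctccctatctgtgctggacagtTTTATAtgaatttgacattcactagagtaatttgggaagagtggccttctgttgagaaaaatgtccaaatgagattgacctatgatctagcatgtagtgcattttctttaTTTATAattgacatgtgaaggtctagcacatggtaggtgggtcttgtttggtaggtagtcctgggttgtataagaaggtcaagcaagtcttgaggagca
Cyp2d9 (chr15:82452127-82452376, plus strand): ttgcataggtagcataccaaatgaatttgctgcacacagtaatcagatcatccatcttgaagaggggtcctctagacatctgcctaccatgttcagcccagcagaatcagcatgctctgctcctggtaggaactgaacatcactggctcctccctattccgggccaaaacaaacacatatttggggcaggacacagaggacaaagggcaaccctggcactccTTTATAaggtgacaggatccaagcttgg
Slc17a2 (chr13:23806743-23806992, plus strand): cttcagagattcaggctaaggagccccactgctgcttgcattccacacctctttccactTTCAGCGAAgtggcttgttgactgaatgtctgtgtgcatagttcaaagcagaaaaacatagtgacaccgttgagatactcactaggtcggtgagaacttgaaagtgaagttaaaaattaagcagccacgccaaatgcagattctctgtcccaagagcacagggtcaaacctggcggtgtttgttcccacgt
Slc17a3 (chr13:23839184-23839433, plus strand): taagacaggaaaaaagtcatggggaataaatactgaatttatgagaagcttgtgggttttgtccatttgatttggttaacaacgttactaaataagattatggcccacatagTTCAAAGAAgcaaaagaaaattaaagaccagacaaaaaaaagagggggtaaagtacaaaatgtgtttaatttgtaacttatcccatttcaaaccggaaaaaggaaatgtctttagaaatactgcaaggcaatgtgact
The matches began 209 and 99 bases before the start in *Slco1a1*, 28 in *Cyp2d9*, 191 in *Slc17a2* and 138 in *Slc17a3*, so both neighbours with opposite sex bias held a match. TATAAA was also matched 169 and 207 bases before the start of the female-biased *Ly6f* and *Gbp3*. TTCNNNGAA was found in 8.30% of all 32851 windows and in 9.11% of the 14133 autosomal genes with a window, against 10.03% of genes called higher in females and 8.34% of those called higher in males. TATAAA was found in 13.6% of all windows, in 13.8% of the autosomal genes, in 10.2% and 9.49% of the genes called higher in females and in males, and in 16.7% of the 96 genes at least 2-fold higher in males against 10.5% of the 57 at least 2-fold higher in females. The full palindromes of the androgen response element (AGAACA and TGTTCT with any 3 bases between) and the oestrogen response element (GGTCA and TGACC with any 3 bases between) were in the windows of 2 and 6 autosomal genes. These are letter matches in a short window, and they were not tested for binding.

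Of 324 transporter genes, 86 were significantly higher in females and 72 in males, which is 48.8% of them against 33.0% of all autosomal genes, with a median log2 difference of 0.02. The balance turned to 75 and 85 when arrays were shifted to a common median, and the counts were 51 and 48 within the arrays low in adrenal markers. In that smaller set, *Slc25a24*, named below, differed by 0.21 on the log2 scale against 0.50 in all 12 arrays and did not pass the test. *Aqp11* (log2 difference -0.18 there), *Slc13a5* (-0.78), *Slc4a5* (0.40), *Slc5a2* (-0.25) and *Slc9a3r1* (-0.245) did not pass it either, at differences less than 1.5 times from those in all arrays. The lists were not matched to other genes on expression level. They were drawn by symbol, so some members are not carriers, such as *Slc9a3r1* and *Slc7a6os*.

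Of 38 organic anion, cation and drug transporters of the *Slc22*, *Slco* and *Slc47* families, 9 were higher in females and 13 in males. *Slco1a1* and *Slc22a30* led in males. The largest female-biased members were *Slc22a27*, 6.81 to 7.42 (median 7.13) in females and 5.35 to 5.73 (median 5.53) in males (2.99-fold higher in females, adjusted p = 6.51e-08), and *Slc22a13*, a urate and nicotinate exchanger, 1.62-fold higher in females. Among 48 ABC transporters, 11 were higher in females and 7 in males (37.5% called, near the 33.0% of all autosomal genes). *Abcb1b*, a P-glycoprotein that expels drugs, was 8.79 to 9.80 (median 9.64) in females and 6.84 to 8.31 (median 7.35) in males (3.91-fold), second to *Abcc3*, while *Abcc9*, the sulphonylurea receptor subunit of vascular potassium channels, and *Abcc2*, an apical conjugate exporter, were higher in males by 1.27- and 1.21-fold. On the log2 scale *Abcb1b* differed by 1.97, and by 1.63 in the arrays low in adrenal markers. With the hepatocyte and adrenal list means as covariates it differed by 1.48. Amino acid and peptide transporters leaned to females, with 21 of 61 higher in females and 12 in males. After *Slc7a12*, *Slc6a18*, an apical carrier of glycine and other neutral amino acids, was highest in females at 12.17 to 12.49 (median 12.44) against 10.61 to 10.89 (median 10.72) in males (3.15-fold, log2 difference 1.65, SE 0.065, adjusted p = 7.97e-10). *Slc6a9*, a glycine transporter, followed *Slc7a13* among male-biased carriers at 2.31-fold.

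Sugar and ion transporters leaned to females. Of 25 genes of the *Slc2* and *Slc5* families, 9 were higher in females and 2 in males. *Slc5a6*, the sodium-dependent multivitamin transporter, was 1.6-fold and *Slc5a1*, the SGLT1 glucose carrier of the late proximal tubule, 1.35-fold higher in females. The 2 that were higher in males were *Slc5a8*, a sodium-coupled monocarboxylate carrier, 11.71 to 11.94 (median 11.86) in females and 12.92 to 13.02 (median 12.95) in males (2.15-fold), and *Slc5a2*, the SGLT2 glucose carrier of the early proximal tubule, 11.48 to 11.70 (median 11.54) in females and 11.75 to 11.96 (median 11.83) in males (1.2-fold, log2 difference -0.26, SE 0.049, adjusted p = 0.00119). SGLT1 and SGLT2 therefore differed between the sexes in opposite directions, each with no overlap between groups. Of 38 genes listed by symbol as ion exchangers, cotransporters and sodium channel subunits, 14 were higher in females and 3 in males, *Slc9a3r1* among them. *Slc4a11*, a bicarbonate transporter-related borate and proton carrier, was 2.2-fold and *Slc4a5*, a sodium bicarbonate cotransporter, 1.36-fold higher in females. *Slc12a2*, the NKCC1 cotransporter, was 9.94 to 10.05 (median 9.99) in females and 10.50 to 10.66 (median 10.60) in males (1.52-fold higher in males, adjusted p = 6.35e-08), and *Slc9a3r1*, the NHERF1 scaffold that holds apical carriers, was 1.21-fold higher in males. Aquaporins and urea transporters gave 4 higher in females and 1 in males of 13 (38.5% called, near the 33.0% of all autosomal genes). They were led by the urea transporter *Slc14a1* (1.45-fold) and the water channel *Aqp4* (1.38-fold) in females, and *Aqp11* was the male-biased member (1.18-fold, log2 difference -0.24, SE 0.066, adjusted p = 0.0137), with overlapping groups.

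Further transporter families leaned to males. Of 19 phosphate and sulphate transporters, 7 were higher in males and 4 in females. *Slc13a5*, a citrate carrier, was at least 1.59-fold and *Slc17a3*, an apical urate exporter, 1.69-fold higher in males, whereas *Slc34a2*, a sodium-phosphate cotransporter, was 1.51-fold higher in females after *Slc17a2*. Of 27 metal transporters, 10 were higher in males and 6 in females. The zinc carrier *Slc30a2* was 8.72 to 9.08 (median 8.95) in females and 10.10 to 10.39 (median 10.18) in males (2.42-fold), and *Slc11a2*, the DMT1 iron importer, was 1.38-fold higher in males. The zinc importer *Slc39a5* (1.93-fold) and *Slc40a1*, the iron exporter ferroportin (1.53-fold), were higher in females. The iron importer *Slc11a2* and the iron exporter *Slc40a1* thus stood on opposite sides. Of 13 monocarboxylate transporters, 5 were higher in males, led by *Slc16a14* (2.24-fold) and *Slc16a6* (1.76-fold), and 2 in females, *Slc16a4* (1.42-fold) and *Slc16a7* (1.33-fold). Of 42 mitochondrial carriers, 12 were higher in males and 6 in females, with *Slc25a21*, an oxodicarboxylate carrier (1.45-fold in males), and *Slc25a24*, an ATP-magnesium and phosphate carrier (1.41-fold in females), at the ends with *Slc25a48* (1.35-fold in males) and the peroxisomal *Slc25a17* (1.19-fold in females).

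**Figure D2:**
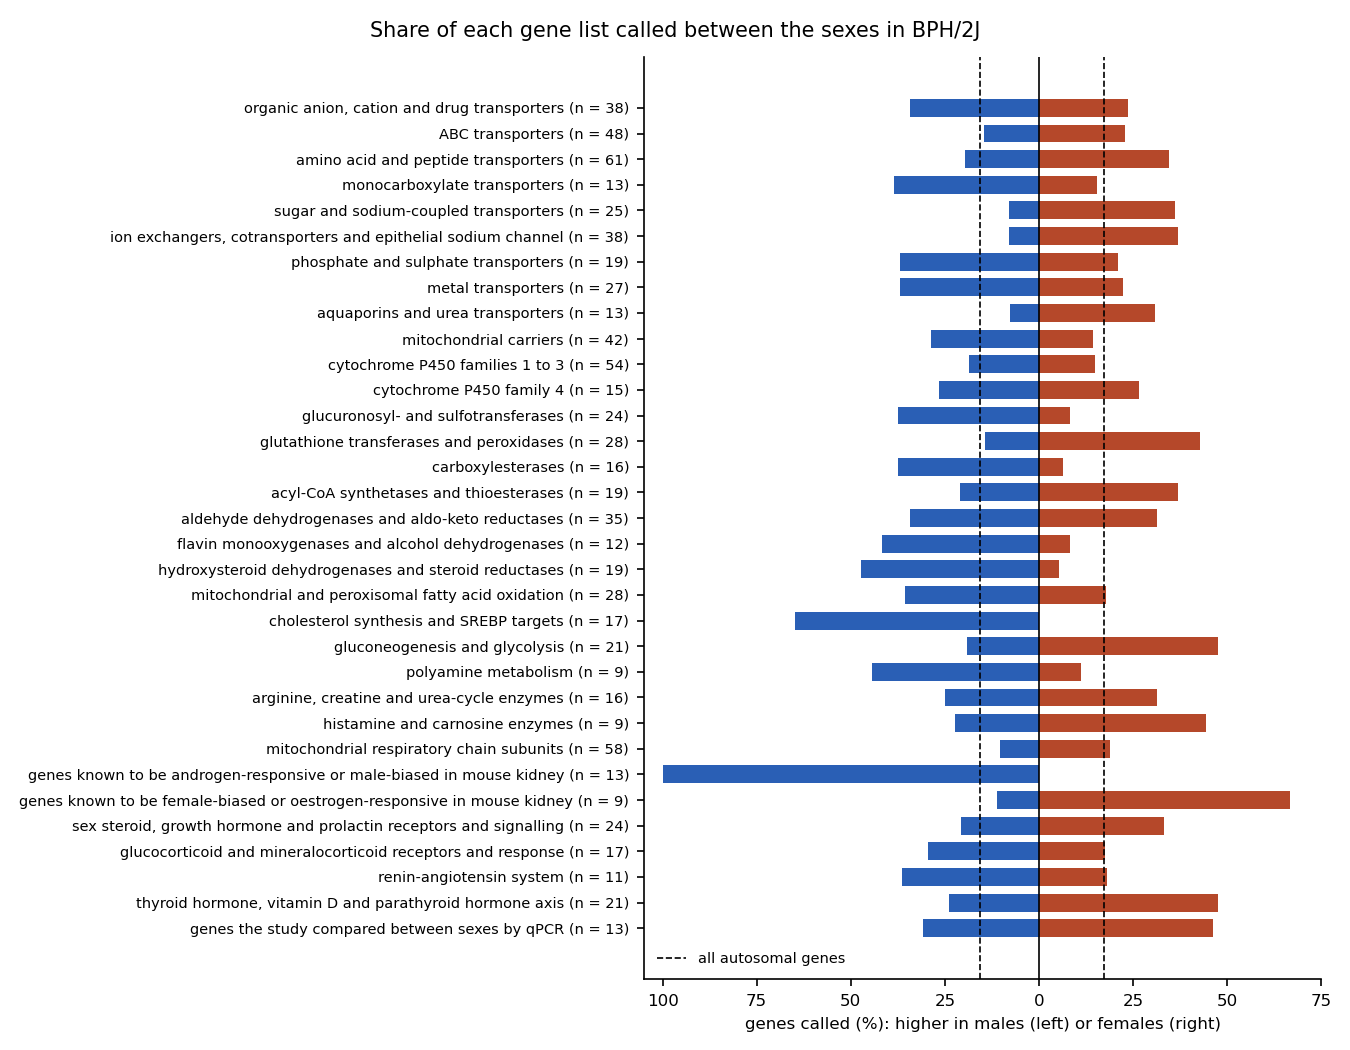
Percent of each gene list called at an adjusted p under 0.05 between BPH/2J females and males, with genes higher in males to the left in blue and higher in females to the right in red, and n the measured autosomal genes. Dashed lines mark all autosomal genes, 15.7% higher in males and 17.2% higher in females, and the cholesterol synthesis list reaches 64.7% on the male side with none on the female side.

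Of 378 metabolic genes, 83 were significantly higher in females and 102 in males, which is 48.9% of them, with a median log2 difference of -0.01. The counts were 71 and 119 when arrays were shifted to a common median, 87 and 97 after quantile normalisation and 47 and 73 within the arrays low in adrenal markers. In those arrays *Sult1a1* differed by 0.115 on the log2 scale against 0.21 in all 12 arrays and did not pass the test. *Azin2* (log2 difference 0.16 there), *Ces2g* (0.30), *Cox8b* (1.00) and *Ndufv3* (-0.29) did not pass it either, at differences less than 1.5 times from those in all arrays.

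Among metabolic genes, enzymes that oxidise and conjugate foreign compounds and steroids carried the largest male-biased differences. Of 54 cytochrome P450 genes of families 1 to 3, 8 were higher in females and 10 in males (33.3% called, near the 33.0% of all autosomal genes), which turned to 9 and 8 with the hepatocyte and adrenal list means as covariates. *Cyp2j13* and *Cyp2d9* led in males. *Cyp2c23*, an arachidonic acid epoxygenase, was 8.79 to 9.46 (median 9.26) in females and 7.87 to 8.35 (median 8.12) in males (2.19-fold), and *Cyp2d26* was 1.7-fold higher in females. Of 15 family 4 members, 4 were higher in each sex. *Cyp4a14* and *Cyp4f14* (2.53-fold) were the largest in females, opposite to *Cyp4a12a* and *Cyp4a12b*, and *Cyp4b1*, a fatty acid hydroxylase, was 12.03 to 12.37 (median 12.23) in females and 13.77 to 13.93 (median 13.86) in males (3.1-fold, log2 difference -1.63, SE 0.061, adjusted p = 5.35e-10). Glucuronosyl- and sulfotransferases leaned to males, with 9 of 24 higher in males and 2 in females, the latter being *Ugt2b34* (2.99-fold) and the sulfotransferase *Sult1a1* (1.16-fold, adjusted p = 0.0232, overlapping groups). The level of *Ugt2b34* was 10.79 to 10.99 (median 10.87) in females and 9.14 to 9.54 (median 9.27) in males. *Ugt2b34* was thus higher in females while *Ugt2b37* and *Ugt2b38*, from the same gene cluster, were higher in males. Carboxylesterases followed the male pattern, 6 of 16 against 1, with *Ces1f* 4.19-fold higher in males and *Ces2g* 1.25-fold higher in females. Flavin monooxygenases and alcohol dehydrogenases gave 5 of 12 higher in males, of which *Fmo5* was 8.32 to 8.92 (median 8.61) in females and 10.76 to 10.999 (median 10.90) in males (4.82-fold) and *Adh1* 1.46-fold, and only *Fmo4* higher in females (1.25-fold). Glutathione transferases and peroxidases leaned to females, with 12 of 28 against 4. The largest were *Gsta4*, which conjugates products of lipid peroxidation, 11.20 to 11.74 (median 11.60) in females and 9.45 to 9.82 (median 9.63) in males (3.75-fold, log2 difference 1.91, SE 0.096, adjusted p = 1.02e-08), and *Gsto1* (2.09-fold), while *Gstp1* was 1.34-fold higher in males and *Gstp3*, with 5 female arrays at or under 5.53, at least 1.09-fold (adjusted p = 0.0493).

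Steroid-handling enzymes were split by family. Of 19 hydroxysteroid dehydrogenases and steroid reductases, 9 were higher in males and 1 in females. *Hsd17b13*, of lipid droplets, was 5.53 to 6.03 (median 5.70) in females and 7.53 to 8.15 (median 8.08) in males (4.85-fold), *Hsd17b2*, which inactivates testosterone and oestradiol, 3.23-fold higher in males, and the female-biased one was *Hsd17b14*, 8.96 to 9.64 (median 9.35) in females and 7.68 to 8.06 (median 7.92) in males (2.75-fold, log2 difference 1.46, SE 0.099, adjusted p = 1.9e-07). *Hsd3b1*, known from adrenal and gonad steroid synthesis and the largest member that did not pass the test, was 5.48 to 10.46 (median 10.36) in females and 5.07 to 9.15 (median 6.36) in males (log2 difference 2.22, adjusted p = 0.128). Of 35 aldehyde dehydrogenases and aldo-keto reductases, 11 were higher in females and 12 in males. *Akr1c18*, which inactivates progesterone, was 11.89 to 12.98 (median 12.08) in females and 9.51 to 10.54 (median 10.18) in males (4.48-fold), *Akr1d1*, a steroid reductase, was 3.75-fold higher in females, *Akr1c14*, a further steroid reductase, was 10.30 to 11.08 (median 10.54) in females and 12.01 to 12.21 (median 12.15) in males (2.92-fold higher in males), and *Aldh3a2*, the fatty aldehyde dehydrogenase, was 1.63-fold higher in males. The *Akr1c* family thus held members on both sides. In the arrays low in adrenal markers, the log2 difference of *Akr1c18* was 1.65 against 2.16 in all arrays. That of *Akr1d1* was 1.33 against 1.91, and that of *Akr1c14* -1.61 against -1.55. These genes kept their call there.

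**Figure D3:**
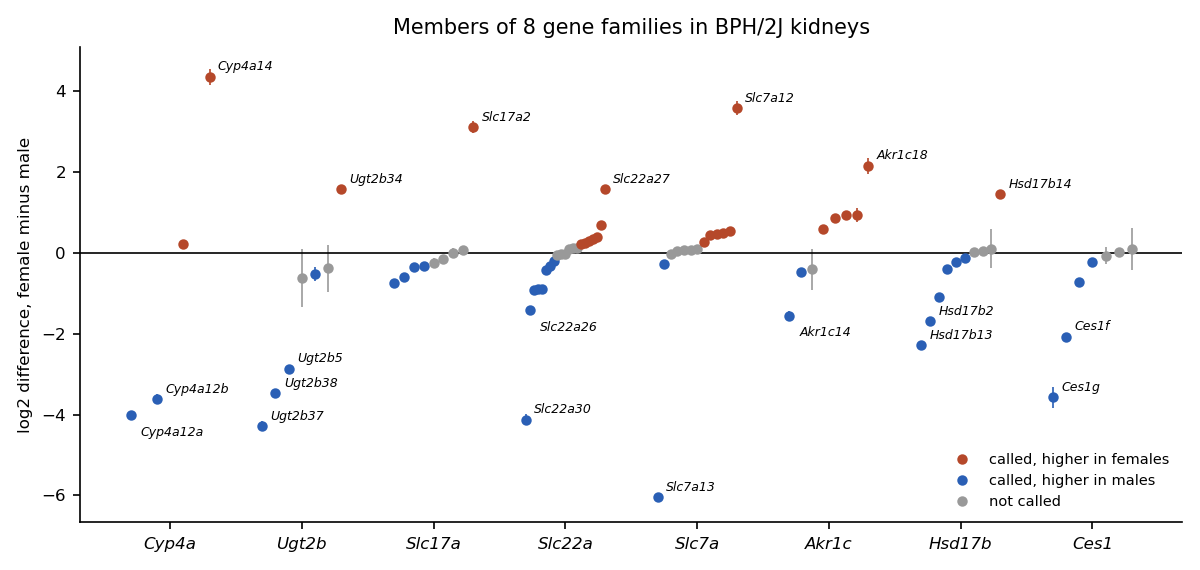
Log2 difference, female minus male, with its standard error for every measured autosomal member of 8 gene families in BPH/2J kidneys, in red where called higher in females, in blue where called higher in males and in grey where not called. Families such as *Cyp4a* (2 called higher in females, 2 in males) and *Slc22a* (7 and 8) hold members on both sides of 0, whereas the 4 called *Ces1* members are all higher in males.

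Several families held members on both sides. The families were drawn by symbol and chosen after their values were seen, and *Slc7a* so counts *Slc7a6os*, which is not a carrier. Of 7 *Ugt2b* genes, 1 was higher in females and 4 in males, and the counts were 1 and 4 of 9 for *Slc17a*, 6 and 2 of 13 for *Slc7a*, 5 and 2 of 8 for *Akr1c* and 1 and 6 of 10 for *Hsd17b*. *Slc17a2* and *Slc17a3* lie next to each other, and 7 annotated genes lie between *Cyp4a12a* and *Cyp4a14* on chromosome 4. *Slc7a12* and *Slc7a13* are on chromosomes 3 and 4. Probe sets of close copies such as *Cyp4a12a* and *Cyp4a12b*, *Ugt2b37* and *Ugt2b38*, or the *Ces1*, *Cyp2d*, *Slc22a* and *Serpina1* genes may share signal, so their separate values are uncertain.

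Lipid and central metabolism showed 1 clear list and several mixed ones. Of 17 genes of cholesterol synthesis and SREBP targets, 11 (64.7%) were significantly higher in males and none in females, with a median log2 difference of -0.28. *Idi1*, the isopentenyl diphosphate isomerase, was 9.34 to 9.72 (median 9.56) in females and 11.19 to 11.48 (median 11.29) in males (3.36-fold, log2 difference -1.75, SE 0.069, adjusted p = 9.47e-10), and *Mvd*, the mevalonate diphosphate decarboxylase, was 8.11 to 8.31 (median 8.20) in females and 9.002 to 9.18 (median 9.08) in males (1.86-fold). Both genes separated the sexes completely, and the arrays low in adrenal markers gave 9 of 17 higher in males and none in females. Of 28 fatty acid oxidation genes, 10 were higher in males and 5 in females. The peroxisomal oxidase *Acox3* was 9.99 to 10.16 (median 10.04) in females and 11.27 to 11.38 (median 11.31) in males (2.38-fold, log2 difference -1.25, SE 0.037, adjusted p = 6.3e-11), and *Cd36*, which takes up fatty acids, was 1.91-fold higher in males. The mitochondrial thiolase *Acaa2* (1.82-fold) and the trifunctional protein subunit *Hadhb* (1.29-fold) were higher in females. Acyl-CoA synthetases and thioesterases gave 7 of 19 higher in females and 4 in males, with the thioesterases *Acot7* (2.55-fold) and *Acot3* (2.33-fold) in females and the synthetase *Acsm2* (1.7-fold) and *Acot12* (1.57-fold) in males. Of 21 genes of gluconeogenesis and glycolysis, 10 were higher in females and 4 in males, which became 2 and 4 in the arrays low in adrenal markers, with a median log2 difference of 0.02 in all arrays and 0.035 in those. *Fbp2*, a fructose bisphosphatase, was 1.84-fold and *Hk1*, a hexokinase, 1.34-fold higher in females, and *Slc37a4*, the glucose phosphate carrier, 1.39-fold and *Pcx*, pyruvate carboxylase, 1.32-fold higher in males. Respiratory chain subunits did not exceed the background at 29.3% called (11 of 58 higher in females and 6 in males, or 6 and 11 after shifting arrays to a common median). *Cox8b*, an isoform of muscle and brown fat, was 2.64-fold and *Cox6b2* 1.55-fold higher in females, and *Cox6a2*, a muscle isoform, 1.56-fold and *Ndufv3* 1.23-fold higher in males.

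Amine and amino acid enzymes were fewer. Of 9 polyamine genes, 4 were higher in males and 1 in females. *Odc1*, ornithine decarboxylase, was 11.23 to 11.63 (median 11.41) in females and 12.25 to 12.83 (median 12.50) in males (2.13-fold, log2 difference -1.09, SE 0.09, adjusted p = 1.22e-06), *Srm*, spermidine synthase, was 1.41-fold higher in males, and *Azin2*, an antizyme inhibitor, 1.14-fold higher in females (adjusted p = 0.0344). Of 16 arginine, creatine and urea-cycle genes, 5 were higher in females and 4 in males. *Oat*, ornithine aminotransferase, was 12.55 to 12.61 (median 12.59) in females and 11.72 to 11.82 (median 11.74) in males (1.78-fold, log2 difference 0.83, SE 0.031, adjusted p = 4.5e-10). The enzyme that makes polyamines from ornithine was therefore higher in males and the one that turns ornithine toward glutamate higher in females. *Prodh2*, hydroxyproline dehydrogenase (1.59-fold), was also higher in females, and *Ddah1*, which breaks down methylarginines (1.3-fold), and *Asl*, argininosuccinate lyase (1.26-fold), were higher in males. Of 9 histamine and carnosine genes, 4 were higher in females and 2 in males. *Uroc1*, urocanase of histidine breakdown, was 8.48 to 9.01 (median 8.79) in females and 7.08 to 7.36 (median 7.21) in males (2.98-fold), and *Aoc1*, the diamine oxidase that degrades histamine, was 1.44-fold higher in females. The carnosine dipeptidases *Cndp2* and *Cndp1* were 2.63- and 1.68-fold higher in males. *Hdc*, the histidine decarboxylase that makes histamine, was 12.24 to 12.48 (median 12.44) in females and 11.88 to 12.33 (median 12.03) in males (1.25-fold, log2 difference 0.32, SE 0.078, adjusted p = 0.00762), with overlapping groups.

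Hormone-regulated genes, counted together with the genes that the study compared by quantitative PCR, had the highest share of calls of the 3 classes, 66.7% of 105 genes, with 34 higher in females, 36 in males and a median log2 difference of 0.04. These lists include genes chosen for a known sex bias. Within the arrays low in adrenal markers the counts were 15 and 28. *Dna2* (log2 difference -0.25 in all arrays and -0.14 there), *Thrsp* (0.99 and 0.43) and *Vwa1* (0.25 and 0.13) did not pass the test in them, nor did *Edn3* (0.21), *Kcnk1* (0.26) and *Sgk1* (0.36), at differences less than 1.5 times from those in all arrays. Of 13 measured genes known to be androgen-responsive or male-biased in mouse kidney, all 13 were higher in males, with no overlap between groups and a median log2 difference of -2.30. That list was drawn from knowledge of the same dimorphism, so its direction is not independent evidence. Its members included *Slco1a1*, *Slc7a13*, *Cyp7b1*, *Slc22a30* and *Odc1* described above. *Kap*, the kidney androgen-regulated protein, and *Gusb*, beta-glucuronidase, were picked from it after their values were seen. *Gusb* was 8.08 to 8.32 (median 8.19) in females and 10.23 to 10.74 (median 10.52) in males (log2 difference -2.30, adjusted p = 4.5e-10). *Kap* was 13.43 to 13.51 (median 13.48) in females and 13.54 to 13.62 (median 13.57) in males (log2 difference -0.10, adjusted p = 0.0358), near the upper end of the scale in both sexes. Of 9 genes listed as female-biased or oestrogen-responsive, 6 were higher in females, led by *Cyp4a14*, *Abcc3* and *Slc7a12*, and *Akr1c14* went the other way.

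Among sex steroid, growth hormone and prolactin receptors and signalling genes, 8 of 24 were higher in females and 5 in males. *Socs2*, a STAT5 target that damps growth hormone signalling, was 10.59 to 11.58 (median 11.18) in females and 9.14 to 10.48 (median 9.74) in males (2.54-fold, log2 difference 1.34, SE 0.21, adjusted p = 2.98e-04). *Igfals*, the acid-labile subunit that carries IGF in plasma, was 8.58 to 8.79 (median 8.70) in females and 7.34 to 7.71 (median 7.47) in males (2.31-fold, log2 difference 1.21, SE 0.059, adjusted p = 7.96e-09). *Bcl6*, a repressor with higher levels in male liver, was 7.84 to 8.17 (median 8.10) in females and 8.0 to 10.35 (median 9.88) in males (2.91-fold higher in males, adjusted p = 0.00248), with the lowest male array inside the female range. *Esr1*, the oestrogen receptor alpha, was 8.34 to 8.55 (median 8.43) in females and 8.83 to 9.22 (median 9.11) in males (1.56-fold higher in males, adjusted p = 6.74e-06). Of 17 glucocorticoid and mineralocorticoid genes, 3 were higher in females and 5 in males. *Fkbp5*, a chaperone induced by steroid receptors, was 7.41 to 7.92 (median 7.73) in females and 9.32 to 9.62 (median 9.43) in males (3.32-fold), and *Hsd11b1*, which regenerates active glucocorticoid, was 2.05-fold higher in males. *Nr3c2*, the mineralocorticoid receptor, was 8.97 to 9.18 (median 9.08) in females and 8.48 to 8.75 (median 8.57) in males (1.39-fold higher in females), and its target kinase *Sgk1* was 1.29-fold higher in females (adjusted p = 0.0113) with overlapping groups.

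Of 11 renin-angiotensin genes, 2 were higher in females and 4 in males. *Agt*, angiotensinogen, was 10.41 to 10.60 (median 10.51) in females and 9.68 to 10.10 (median 9.84) in males (1.57-fold, log2 difference 0.65, SE 0.069, adjusted p = 1.17e-05), and *Mme*, neprilysin, which cleaves angiotensin and natriuretic peptides, was 12.36 to 12.57 (median 12.48) in females and 11.60 to 11.75 (median 11.65) in males (1.77-fold, log2 difference 0.83, SE 0.043, adjusted p = 1.44e-08). *Mas1*, the receptor for a shorter angiotensin peptide, was at least 1.05-fold higher in males (measured log2 difference -0.69, all 6 female arrays at or under 5.53), and *Agtrap*, a protein that binds the angiotensin receptor, was 1.33-fold higher in males. All 4 genes separated the sexes. Of 21 genes of the thyroid hormone, vitamin D and parathyroid hormone axis, 10 were higher in females and 5 in males, which became 1 and 3 in the arrays low in adrenal markers, with a median log2 difference of 0.18 in all arrays and 0.15 in those. *Dio1*, the deiodinase that activates thyroid hormone, was 8.92 to 9.39 (median 9.09) in females and 7.16 to 7.92 (median 7.34) in males (3.23-fold, log2 difference 1.69, SE 0.12, adjusted p = 3.45e-07), whereas *Thrsp*, a lipogenic thyroid-responsive gene, was 1.99-fold higher with overlapping groups (adjusted p = 0.0118) and did not pass the test with the hepatocyte and adrenal list means as covariates. *Cyp24a1*, which inactivates vitamin D, was 2.55-fold higher in males (adjusted p = 0.0081) with overlapping groups, and *Rxra*, the partner of several nuclear receptors, 1.33-fold.

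Of the 13 measured genes that the study also compared between sexes by quantitative PCR, 6 were higher in females and 4 in males on the arrays. The study chose them on these same arrays, for a difference between the strains, so they are not independent evidence. *Il10rb*, an interleukin receptor subunit (1.5-fold), *Kcnk1*, a potassium channel (1.26-fold), *Edn3*, an endothelin (1.24-fold), *Vwa1*, a matrix protein (1.19-fold), *Pld1*, a phospholipase (1.14-fold), and *Hdc* were higher in females. *Cndp2*, *Cyp4b1*, *Angptl7*, an angiopoietin-like protein (1.73-fold), and *Dna2*, a DNA helicase and nuclease (1.19-fold), were higher in males. *Mcm6*, *Pak6* and *Serpinb8* did not pass the test, with log2 differences of 0.14, 0.09 and 0.15. In BPH/2J the study's quantitative PCR gave the array direction for *Il10rb*, *Kcnk1*, *Edn3*, *Vwa1*, *Pld1*, *Hdc*, *Cndp2*, *Cyp4b1* and *Angptl7*. The folds by quantitative PCR were larger than those on the arrays for all of these genes but *Cndp2*. By that method the study reported *Serpinb8* and *Pak6* higher in females and no sex difference for *Dna2*, unlike the arrays. For *Mcm6* its text and its table differ.

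Cell type marker lists moved with sex alongside these genes. All 6 podocyte markers and all 10 intercalated cell markers were higher in females, with list means of 8.64 to 8.71 against 8.22 to 8.30 and of 10.57 to 10.71 against 10.20 to 10.43. The list mean was higher in every female array than in every male array also for vascular smooth muscle and pericytes (difference 0.30, 7 of 9 genes called), fibroblasts (0.33, 6 of 9), thick ascending limb (0.22, 6 of 7, with 1 higher in males) and distal convoluted tubule (0.26, 5 of 7), each at an exact permutation p of 0.00216, the smallest that 924 regroupings allow (0.00557 after Benjamini-Hochberg adjustment over 18 lists). Principal cell (5 of 8 called higher in females), endothelium (5 of 10) and macrophage lists (4 of 10) overlapped between the sexes. Over all autosomal genes, 17.2% were called higher in females. Endothelium and macrophages had 1 gene of 10 each called after arrays were shifted to a common median. In the arrays low in adrenal markers, 5 of 6 podocyte, 4 of 10 intercalated cell and 1 of 7 distal convoluted tubule genes were called higher in females. Their median log2 differences were 0.40, 0.26 and 0.24 there against 0.44, 0.30 and 0.26 in all arrays. The proximal tubule list did not separate them (4 of 11 higher in females and 3 in males, difference -0.02, two-sided exact permutation p = 0.307). The late proximal tubule (S3) list was lower in females by 0.67, but without *Slc7a13* it was 11.54 to 11.71 in females and 11.49 to 11.56 in males. Whether the share of cells or the level per cell differed was not tested.

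Markers of tissue outside the kidney were compared in the same way. The adrenal cortex list mean differed by 1.56 with overlapping groups (two-sided exact permutation p = 0.123), and *Cyp11b1*, its defining steroid hydroxylase, was 5.46 to 11.95 in females and 5.23 to 9.92 in males. The adrenal medulla list differed by 0.70 (exact p = 0.113). The adipocyte list mean was 9.12 to 10.01 in females and 8.83 to 9.38 in males (difference 0.61, exact p = 0.00649), 5 of 9 genes were higher in females, and the female arrays lowest in adrenal markers were also the lowest in adipocyte markers. The hepatocyte list was 6.86 to 9.76 in females and 7.08 to 9.62 in males (exact p = 0.701; 3 of 19 genes higher in males, 15.8% against 15.7% of all autosomal genes, and none in females), and the lymphocyte list 5.97 to 6.93 and 6.12 to 7.33 (no gene of 9 called). Ovary and testis lists differed by 0.05 and -0.00360, with 1 of 8 autosomal genes of each called higher in females, 12.5% against 17.2% of all autosomal genes. *Ucp1*, the uncoupling protein of brown fat, is given beside these lists. It was 7.78 to 10.51 (median 9.57) in females and 6.29 to 8.27 (median 7.05) in males (log2 difference 2.13, adjusted p = 0.00506), the groups overlapped, and the difference was 1.55 with the list means as covariates and 0.90, no longer past the test, in the arrays low in adrenal markers. *Cox8b* and *Thrsp* also lost their call there, with log2 differences of 1.00 and 0.43. In contrast *Slc7a12* differed by 3.53 and *Pzp* by -5.72 in those arrays. They include male array 1 but not female array 3, each the richest of its sex in hepatocyte markers. With the list means as covariates *Pzp* differed by -4.85.

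**Figure D4:**
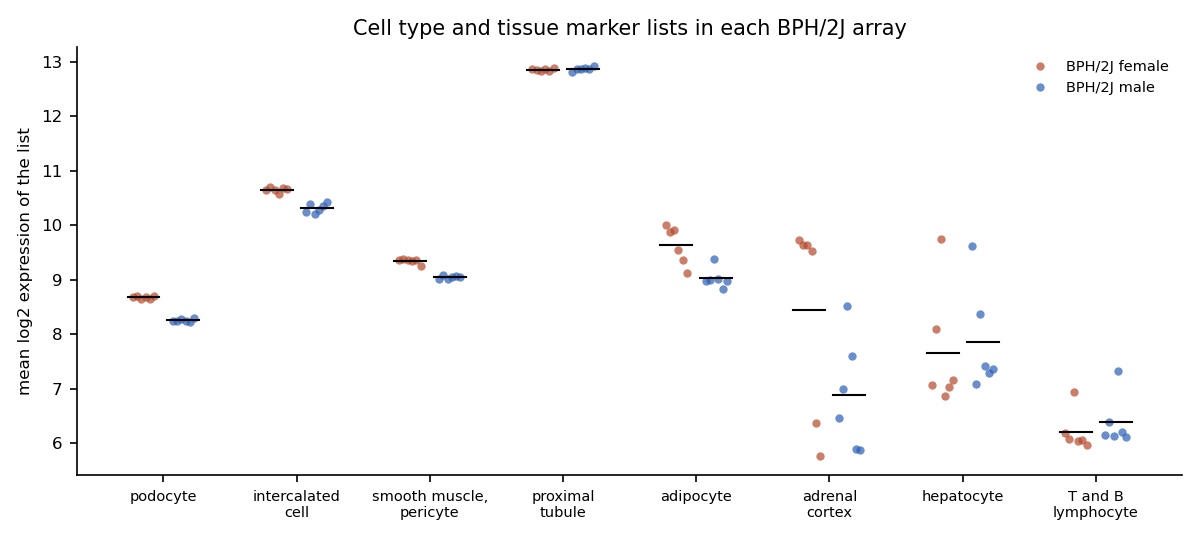
Mean log2 expression of 8 marker lists in each BPH/2J array, with females in red, males in blue and black bars at the mean of 6 arrays. Podocyte, intercalated cell and smooth muscle lists are higher in all females, the proximal tubule list overlaps, and adrenal cortex markers split the females into 4 arrays from 9.52 to 9.73 and 2 at 6.36 and 5.77.

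Most sex differences of the hypertensive strain were also called in the normotensive one. In BPN/3J, 2963 genes were higher in females and 3023 in males (33.2%). Of the genes higher in BPH/2J females, 2153 (69.3%) were also called higher in BPN/3J females, which is 72.7% of the BPN/3J calls, and for males the shared 2066 genes were 72.7% of the BPH/2J and 68.3% of the BPN/3J calls. The strains share no arrays. The difference between the strains was tested directly as a strain-by-sex interaction, which passed for 405 genes (2.24%), 203 (1.13%) with a larger and 202 (1.12%) with a smaller female-minus-male difference in BPH/2J. Among these 405, 66 were called between the sexes in BPH/2J alone, 110 in BPN/3J alone and 2 in neither. A further 193 were called in the same direction in both, with the larger difference in BPH/2J for 57 and in BPN/3J for 136, and 34 were called in opposite directions. Interactions were called for 26 of 324 transporters, 38 of 378 metabolic genes and 18 of 105 hormone-regulated genes.

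*Hdc* showed the largest interaction. In BPN/3J it was 10.65 to 11.79 (median 11.18) in females and 6.17 to 6.75 (median 6.51) in males, a log2 difference of 4.75 against 0.32 in BPH/2J (interaction -4.43, adjusted p = 1.35e-13). All 12 BPH/2J arrays lay above all 12 BPN/3J arrays for this gene. *Scrg1* stood higher in BPH/2J females than in the other groups. It was 7.84 to 8.62 (median 8.22) there, 4.99 to 5.20 (median 5.11) in BPH/2J males, 4.89 to 5.25 (median 5.04) in BPN/3J females and 4.996 to 5.21 (median 5.10) in BPN/3J males (interaction 3.19, adjusted p = 8.32e-14). *Hsd17b14* had a similar pattern, with 7.71 to 8.01 (median 7.89) in BPN/3J females and 7.77 to 7.97 (median 7.84) in BPN/3J males and no call there (interaction 1.45, adjusted p = 2.86e-08). *Serpina1d*, an antitrypsin gene, was the reverse, with 9.95 to 10.30 (median 10.18) in BPH/2J males, 7.21 to 8.81 (median 7.67) in BPH/2J females, and 5.24 to 7.49 (median 5.97) and 5.26 to 6.72 (median 5.78) in BPN/3J females and males (interaction -2.78, adjusted p = 0.00152). *Ces1g* (-2.75), *Slc22a26* (-1.76) and *Cyp2d12* (-1.51) were likewise higher in BPH/2J males than females and not called in BPN/3J.

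Other male-biased genes were less dimorphic in BPH/2J. *Cyp4b1* was 8.57 to 9.02 (median 8.80) in BPN/3J females and 11.95 to 12.17 (median 12.08) in BPN/3J males, a log2 difference of -3.27 against -1.63 in BPH/2J (interaction 1.64, limma adjusted p = 8.44e-11), and both BPH/2J sexes lay above their BPN/3J counterparts. *Inmt*, an indolethylamine methyltransferase, was 11.90 to 12.30 (median 12.07) in BPH/2J females and 9.16 to 10.61 (median 9.44) in BPN/3J females, while males were 13.25 to 13.53 (median 13.36) and 13.13 to 13.25 (median 13.21) (interaction 2.17, adjusted p = 4.46e-06). *Cndp1* differed by -0.74 in BPH/2J and -2.43 in BPN/3J (adjusted p = 1.59e-11). *Cyp4a14*, *Igf2* and *Slc7a12* had smaller female excesses in BPH/2J, with interactions of -1.37, -1.05 and -1.42, and *Cyp7b1* and *Slc22a30* larger male excesses, with interactions of -1.27 and -1.36. Directions were opposite for *Slc12a2* (-0.60 in BPH/2J and 0.15 in BPN/3J), *Abcc9* (-0.35 and 0.44), *Vwa1* (0.25 and -0.45) and *Ucp1* (2.13 and -1.45). The *Slco1a1* difference, -7.55 and -5.69, did not pass the interaction test (adjusted p = 0.369), and BPN/3J females ranged from 5.10 to 9.76.

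**Figure D5:**
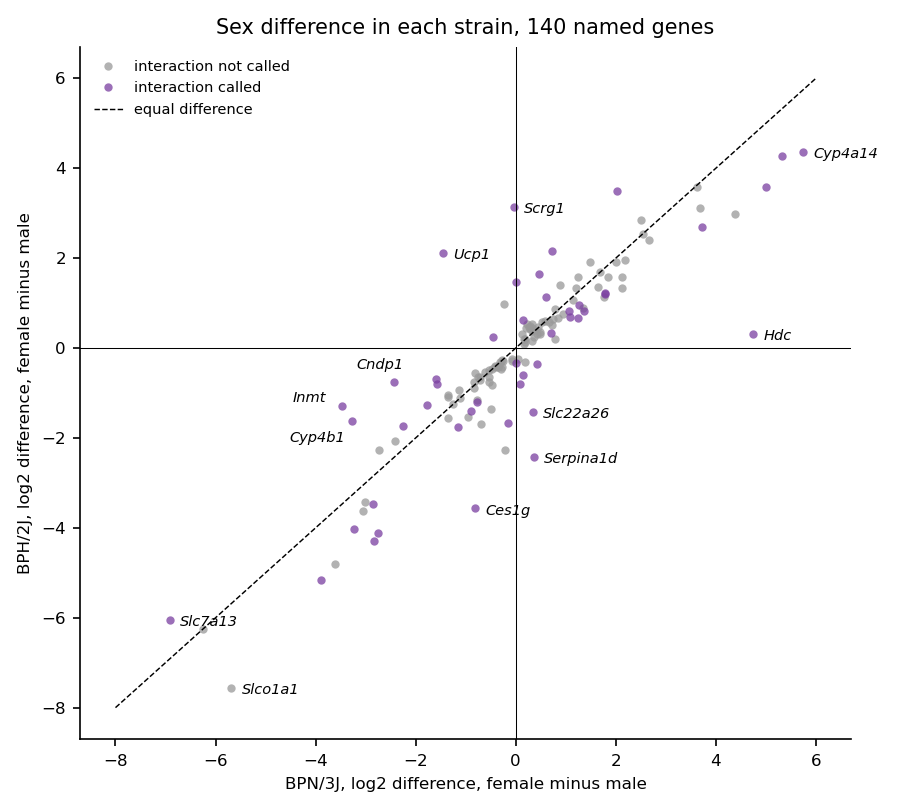
Log2 difference, female minus male, in BPH/2J against that in BPN/3J for the 140 named genes, in purple where the strain-by-sex interaction was called and grey where not, with the dashed line marking equal differences. Most genes lie near the line, while *Hdc* (0.32 in BPH/2J, 4.75 in BPN/3J), *Scrg1* (3.15 and -0.04) and *Ucp1* (2.13 and -1.45) lie far from it.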

How the data were processed

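Kidney RNA from BPH/2J and BPN/3J mice, 6 of each sex and strain, had been hybridised to Affymetrix Mouse Gene 1.0 ST arrays, 1 array per mouse. The values deposited by the authors were log2 probe set summaries after RMA (background correction, quantile normalisation and median polish), which compresses differences of dim probe sets. They ran from 2.123 to 14.551 and were used as given.

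Groups were taken from the strain and sex labels. Of 28853 probe sets, 21160 listed 1 gene symbol, 1880 several and 5813 none. Genes were placed by RefSeq GRCm38.p6, through the Entrez ID for 21129 probe sets and the symbol for 18, leaving 13 unmatched. Of 18783 genes, 18041 were autosomal, and the probe set with the highest mean over 24 arrays stood for each of the 1323 genes with several. Probe sets with several or no symbols were left out of the counts.

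Females and males were compared within BPH/2J by limma 3.58.1 (R 4.3.3) with Benjamini-Hochberg adjustment over all probe sets, and likewise within BPN/3J. The interaction was fitted on all 24 arrays. List means were compared with exact permutation tests over 924 regroupings, two-sided, in Python 3.11.15. Named genes were the 12 with the largest called, non-overlapping differences each way, the 2 largest called each way in each list, the 5 largest interactions each way and the genes of the study's quantitative PCR, without clone names, small RNAs and olfactory or vomeronasal receptors. Members and lists were chosen with earlier results of these data known. The alternatives were other thresholds, normalisations, probe set choices, blocks, covariates and sets of arrays.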

Additional observations from a re-analysis of the deposited data

Results flagged for a closer look

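Single arrays stood apart from the other 5 of their sex in 20 of the 280 groups of 6 that were examined with Dixon's test for the 140 named genes, where chance flags about 1 group in 20. Female array 3, the one richest in hepatocyte markers, accounted for 9 of them. It was the lowest female array for the thioesterase *Acot7* (9.469), the cytochromes *Cyp2c23* (8.793) and *Cyp2d26* (12.832), and the transporters *Slc22a13* (11.709), *Slc25a48* (9.586), *Slc5a1* (10.221) and *Slc6a18* (12.169), and the highest for *Mcm6* (6.789) and *Slco1a1* (5.412). Female array 2 was lowest for *Cyp2j13* (6.192) and *Slc22a26* (8.002). Among males, array 1 was highest for *Cyp4f14* (7.191), array 2 for *Cyp4a12b* (12.744) and *Gsto1* (9.883), array 3 for *Acox3* (11.381) and *Mcm6* (6.482), and array 4 for *Oat* (11.824). Male arrays 4, 3 and 6 were lowest for *Aqp11* (10.743), *Slc25a24* (6.959) and *Hsd17b13* (7.525).

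The sex difference itself differed between the strains, by the limma interaction test at an adjusted p under 0.05, for 46 named genes. The values given are the female-minus-male log2 difference in BPH/2J minus that in BPN/3J. Among transporters this was 0.86 for *Slc7a13*, 1.18 for *Slc6a18*, 0.53 for *Slc4a11* and 0.50 for *Slc30a2*. It was negative for the amino acid carriers *Slc7a12* (-1.42) and *Slc6a9* (-0.44), the organic anion carriers *Slc22a13* (-0.39), *Slc22a26* (-1.76) and *Slc22a30* (-1.36), and for *Slc12a2* (-0.76), *Slc13a5* (-0.88), *Slc39a5* (-0.31), *Slc5a6* (-0.57) and *Abcc9* (-0.78). The enzymes with positive values were *Akr1c18* (1.44), *Cndp1* (1.68), *Cox6b2* (0.48), *Cyp4b1* (1.64), *Hsd17b14* (1.45) and *Inmt* (2.17). Enzymes with negative values were *Acot3* (-0.55), *Asl* (-0.33), *Ces1g* (-2.75), *Cndp2* (-0.50), *Cyp2d12* (-1.51), *Cyp4a12a* (-0.79), *Cyp4a14* (-1.37), *Cyp7b1* (-1.27), *Hdc* (-4.43), *Idi1* (-0.61), *Kynu* (-1.02), *Mme* (-0.55), *Oat* (-0.25), *Ugt2b37* (-1.45) and *Ugt2b38* (-0.61). Of the remaining genes, *Angptl7* (0.77), *Fkbp5* (0.52), *Ly6f* (1.46), *Mas1* (0.91), *Scrg1* (3.19), *Ucp1* (3.58) and *Vwa1* (0.69) were positive, and *Igf2* (-1.05), *Igfals* (-0.58), *Kcnk1* (-0.38) and *Serpina1d* (-2.78) negative. For *Cndp2* the study's quantitative PCR gave a larger male excess in BPN/3J than in BPH/2J, the reverse of the arrays. For *Hdc*, *Cyp4b1*, *Angptl7*, *Kcnk1* and *Vwa1* that method ordered the strains as the arrays did.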

How the results depend on the processing

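No called named gene changed direction under any of the alternatives run, while *Pak6*, not called, went from a log2 difference of 0.09 to -0.0095 in the arrays low in adrenal markers. Of the 137 called named genes, 129 kept their call under every alternative other than the Bonferroni thresholds, the fold filter and the sets of arrays chosen after seeing the data. Stricter thresholds moved the counts most. With a Bonferroni threshold, 491 genes were higher in BPH/2J females and 612 in males, and 450 and 643 in BPN/3J. A two-sided t-test with unequal variances, a form that the methods do not specify, gave with that threshold 244 and 430 in BPH/2J and 252 and 428 in BPN/3J, and a filter of at least 1.5-fold gave 288 and 346 in BPH/2J and 332 and 403 in BPN/3J. Interactions numbered 40 larger and 43 smaller in BPH/2J with the Bonferroni threshold and 67 and 59 with the fold filter. The BPH/2J arrays low in adrenal markers, an alternative chosen after seeing the data, gave 1367 and 1242 from 2 female and 4 male arrays. The cause was not tested, and fewer arrays enter that fit. Leaving out 1 array at a time gave 2792 to 3024 genes higher in females and 2567 to 2747 higher in males in BPH/2J, 2661 to 2896 and 2693 to 2968 in BPN/3J, and 166 to 214 larger and 163 to 211 smaller interactions.

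With the replicate number as a block, 2816 genes were higher in females and 2490 in males in BPH/2J, 2767 and 2809 in BPN/3J, and 195 and 184 interactions were called. The numbers did not pair the arrays, since deviations of same-numbered female and male arrays correlated at -0.13 to 0.17 and 0 of 6 females correlated best with their own number. With the hepatocyte and adrenal list means as covariates the BPH/2J counts were 2579 and 2276, sharing 4607 calls with the 5948, and *Aqp11*, *Azin2*, *Gstp3*, *Pld1*, *Thrsp* and *Vwa1* lost their call. *Hdc*, *Gstp3* and *Sult1a1* lost it when all 24 arrays shared 1 estimate of spread. RMA values near the lower end of the scale understate differences, and array number, not read depth, limits the precision.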

Other observations

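Among the 34 genes with opposite sex differences in the strains, several that were not named by the rule were chosen after their values were seen. *Cd55*, which limits complement activation, had a log2 difference (female minus male) of -0.77 in BPH/2J and 0.57 in BPN/3J, and *Slc38a3*, a glutamine carrier of the proximal tubule, of -0.41 and 0.62. *Fgf1*, a fibroblast growth factor, differed by -0.49 and 0.16. The reverse held for *Pparg*, the nuclear receptor of fat cells (0.32 in BPH/2J and -0.72 in BPN/3J), *Ucp3*, an uncoupling protein (0.50 and -0.38), *Hk2*, a hexokinase (0.36 and -0.60), *Acsm1*, an acyl-CoA synthetase (0.43 and -0.35), and *Asns*, asparagine synthetase (0.27 and -0.56). *Pparg* and *Ucp3*, like *Ucp1*, are also expressed in fat, and the part of the adipocyte marker levels in these values was not tested.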
